A study of Mus musculus with 6 samples.

Results

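Integrins are cell surface receptors made of an alpha and a beta subunit that attach cells to the extracellular matrix. Focal adhesion adaptors are the cytoplasmic proteins that switch integrins on and tie them to actin. The genes described here are those whose symbols name an integrin alpha or beta subunit, together with a fixed set of adaptors (talins, kindlins, vinculin, the Ilk, Lims and parvin proteins, paxillin and zyxin). They numbered 37 of the 19296 genes measured: 18 alpha subunits, 8 beta subunits and 11 adaptors. Each had 1 probe set with a single symbol in the platform annotation. Ptk2, also on the adaptor list, was not analysed here.

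The arrays held RNA of ureteric bud cells sorted as YFP-positive from trypsin-treated mouse kidneys at E15.5, on a mixed strain background. There were 3 arrays of the Dicer mutant, Dicerc/-; Hoxb7Cre; Rosa26YFP, in which a ureteric bud Cre acts on a conditional allele of the miRNA-processing enzyme Dicer and the other allele is null. The 3 control arrays carry the genotype wild type. Whether these YFP-sorted controls also carried Hoxb7Cre and Rosa26YFP is not stated, so an effect of Cre cannot be told apart from that of Dicer. The sources do not say whether an array held 1 embryo or several, so the tests measure the spread between these samples. The comparison asks which of the adhesion genes differed in level between mutant and control bud cells.

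The ureteric bud is an epithelial tree on a basement membrane, and its branching in the kidney depends on integrin contact with laminins, nephronectin and other matrix proteins. An alpha subunit decides much of what a receptor binds, and a beta tail recruits talin and kindlin, which activate it. Alpha-v is the partner of several beta subunits in receptors that recognise the RGD sequence, some of which release latent TGF-beta. Levels are given as deposited, as RMA values on the log2 scale, where 1 unit is a doubling of the signal. A gene is said to have risen or fallen where limma's test passed an adjusted p of 0.05 (Benjamini-Hochberg over all 19296 genes).

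The sorted cells carried the ureteric markers in both groups. Of 10 such markers all lay above the median of all probe sets, 7.51, with 6 lower and 1 higher in the mutant, and their summed linear signal was 42450 to 43570 on control and 37500 to 38400 on mutant arrays. Dicer1 read 10.31, 10.38 and 10.25 on the control arrays and 9.80, 9.72 and 9.64 on the mutant arrays. No array stood apart, with correlations of 0.996 to 0.998 within groups. Markers of 7 other lineages were summed in the same way, and in 2 of them the mutant sums lay above all control sums. The 6 cap mesenchyme genes summed to 914.5 to 992.5 in control and 1994 to 2119 in mutant cells. Six2 was the one that rose (log2 fold change 3.29), Osr1 (-0.67) fell, the other 4 did not pass, and the median of the 6 was -0.10. The 4 proximal tubule genes summed to 445.2 to 612.8 in control and 653.5 to 693.3 in mutant cells. Lrp2 (1.05) rose, Slc34a1 (-0.69) fell and the other 2 did not pass. Those, Cubn (-0.51) and Slc5a2 (-0.16), were also lower on every mutant array than on any control array. The median of the 4 was -0.33. Bulk arrays cannot tell apart a change in the number of cells of a type from a change in RNA per cell.

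Of the 26 integrin subunits 10 rose or fell, as did 4 of the 11 adaptors, and most of the genes did not pass the test. Of the 37 genes, 10 rose and 4 fell, 14 in all or 37.8%, against 25.8% of all genes (11.8% higher and 13.9% lower). The 22 members with a mean above the median of all probe sets accounted for 13 of the 14 calls (10 higher and 3 lower). That is 59.1% of the 22, where 39.6% of all genes above the median passed (19.3% higher and 20.3% lower). Of the 15 dimmer members, 1 passed, where the share of all dimmer genes was 11.9%. In 20 of the 37 genes the arrays of the groups did not overlap, beside 42.5% of all genes. That share depends on brightness: 6033 of the 9677 genes above the median did not overlap, and 2159 of the 9619 dimmer ones. The median log2 fold change of the members was -0.06, beside -0.05 over all genes. Only Itgb8 changed by 2-fold or more. By role, 3 of 18 alpha subunits rose and 2 fell, 4 of 8 beta subunits rose and 1 fell, and 3 of 11 adaptors rose and 1 fell. Without mutant replicate 2 the number of members that rose was 6, and without mutant replicate 1 or replicate 3 the number that fell was 2.

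**Figure D1:**
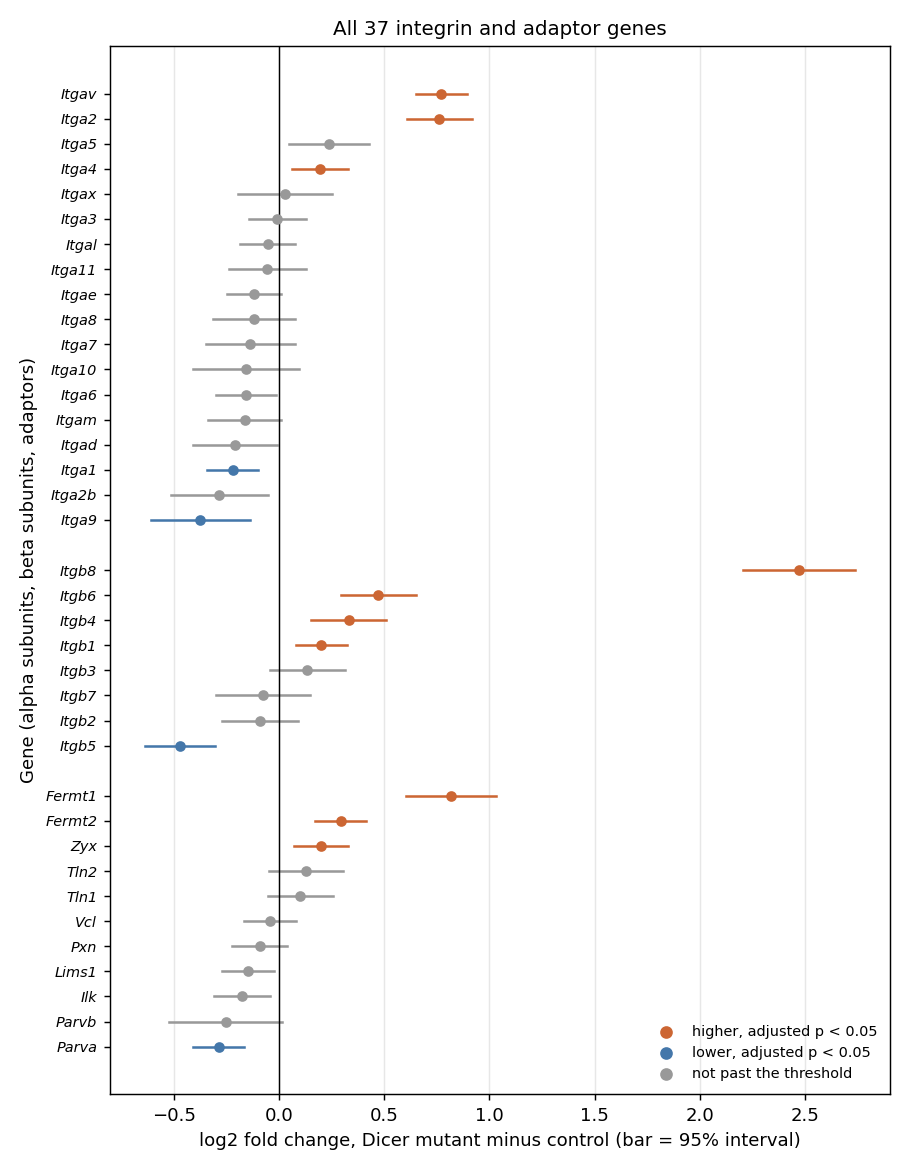
Estimated log2 fold change (Dicer mutant minus control, horizontal axis) of each of the 37 genes with its 95% interval from limma, grouped from top to bottom as alpha subunits, beta subunits and adaptors. Itgb8 lies far to the right at 2.47, Fermt1, Itgav and Itga2 lie between 0.76 and 0.82, and the other genes lie between -0.47 and 0.47.

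**Figure D2:**
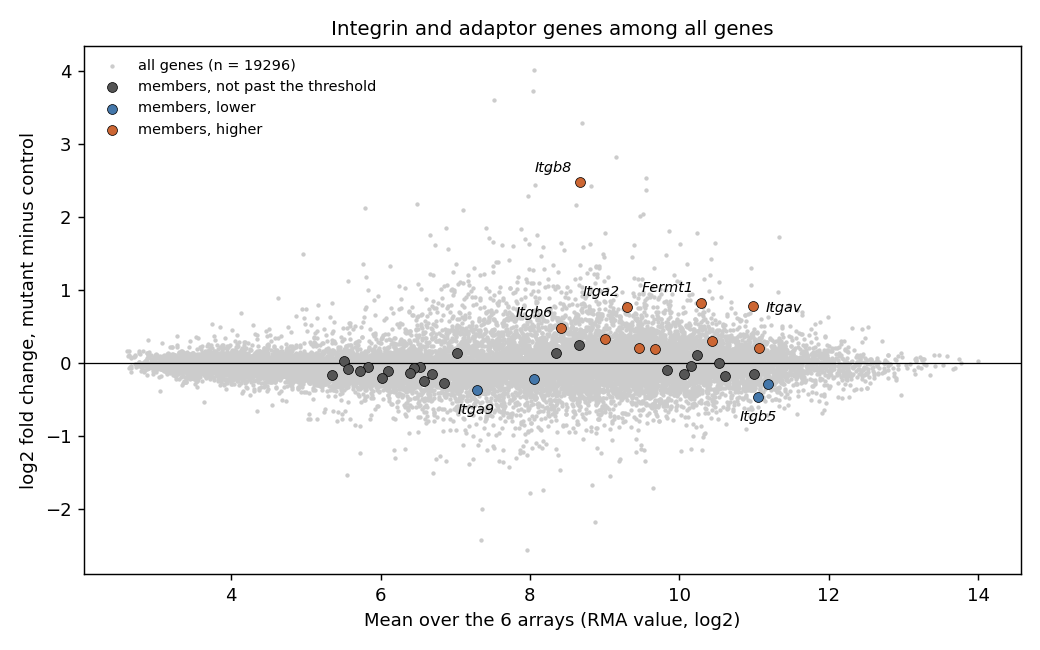
Log2 fold change against the mean RMA value over the 6 arrays for all 19296 genes (grey) and the 37 integrin and adaptor genes (coloured by call). The members past the threshold lie mostly among the brighter genes, and Itgb8 ranked 8 among all genes by size of rise.

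Of alpha-v and its beta partners, Itgav, Itgb8, Itgb6 and Itgb1 rose, Itgb5 fell and Itgb3 did not pass. Itgb8, the beta subunit that pairs with alpha-v alone and serves in the release of TGF-beta from its latent complex, read 7.22, 7.41 and 7.65 on the control arrays and 9.80, 9.85 and 10.05 on the mutant arrays. The lowest mutant array lay 2.14 above the highest control array. The rise was 5.55-fold, a log2 fold change of 2.47 with a 95% interval of 2.20 to 2.74 (adjusted p = 2.11e-05). The control level, 7.43 ± 0.22 (SD, n = 3), lay just under the median of all probe sets, 7.51, and the mutant level, 9.90 ± 0.13 (SD, n = 3), well above it.

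Itgav, the alpha-v subunit itself, read 10.58, 10.60 and 10.63 in control cells and 11.34, 11.42 and 11.37 in mutant cells. The groups did not overlap and each was tight (SD 0.02 and 0.04), and the difference was 1.71-fold (log2 fold change 0.77, 95% interval 0.65 to 0.89; adjusted p = 7.78e-05). Itgb6, the epithelial partner that also releases latent TGF-beta, read 8.05, 8.31 and 8.17 against 8.62, 8.72 and 8.59. It rose 1.39-fold, from 8.17 ± 0.13 to 8.65 ± 0.07 (SD, n = 3 each; adjusted p = 0.00324).

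Itgb5, the alpha-v partner that binds vitronectin, fell. Its control arrays read 11.38, 11.24 and 11.26 and its mutant arrays 10.83, 10.91 and 10.72, with no overlap. The level was 1.39-fold lower in the mutant (log2 fold change -0.47, 95% interval -0.64 to -0.31; adjusted p = 0.00229), the largest fall of the 37 genes. Itgb3, the subunit known from platelets and osteoclasts, lay under the median in both groups at 6.96 ± 0.09 and 7.09 ± 0.11 (SD, n = 3 each) and did not pass (log2 fold change 0.13, 95% interval -0.04 to 0.31).

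Itgb1, which pairs with the most alpha subunits and alpha-v among them, read 10.97, 11.01 and 10.92 in control cells and 11.15, 11.18 and 11.18 in mutant cells. The arrays did not overlap, but the difference was small, 1.15-fold (log2 fold change 0.20, 95% interval 0.08 to 0.32; adjusted p = 0.0265). The call was lost when any array except control replicate 2 was left out: the adjusted p was 0.0546 without control replicate 1, 0.0654 without control replicate 3, and 0.0752, 0.0774 and 0.0802 without mutant replicates 1, 2 and 3. The calls of Itgb8, Itgav, Itgb6 and Itgb5 held in each of the 14 alternatives run, with an adjusted p of at most 0.0167. The fit without dim genes kept genes above the median in at least 1 group. Itgb8 entered that fit through its mutant level alone, so the fit adds no separate support for its call.

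**Figure D3:**
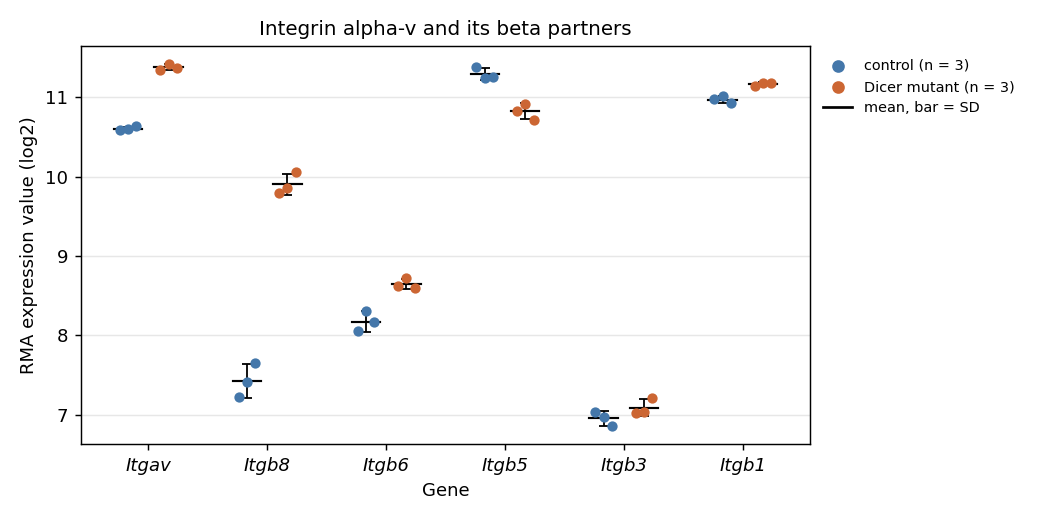
RMA value (log2, vertical axis) of Itgav and its beta partners on each array, control in blue and Dicer mutant in orange, with the mean and SD of 3 arrays. Itgb8 rose from 7.43 to 9.90 and Itgb5 fell from 11.29 to 10.82, and levels of different genes are not comparable because their probes differ.

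The promoters of 3 of these genes are printed to show the largest rise, its alpha partner and the largest fall side by side. Each sequence is the 200 bases before the gene's start in RefSeq (GRCm38.p6), 5′ to 3′ on the gene's strand, with matches to the motifs named after it in capitals. Itgb8 lies on the minus strand at chr12:119238277-119238476, Itgav on the plus strand at chr2:83724197-83724396 and Itgb5 on the plus strand at chr16:33829465-33829664.
Itgb8: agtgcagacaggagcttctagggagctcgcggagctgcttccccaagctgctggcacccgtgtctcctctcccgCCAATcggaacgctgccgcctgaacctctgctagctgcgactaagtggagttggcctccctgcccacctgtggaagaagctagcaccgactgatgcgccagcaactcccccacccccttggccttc
Itgav: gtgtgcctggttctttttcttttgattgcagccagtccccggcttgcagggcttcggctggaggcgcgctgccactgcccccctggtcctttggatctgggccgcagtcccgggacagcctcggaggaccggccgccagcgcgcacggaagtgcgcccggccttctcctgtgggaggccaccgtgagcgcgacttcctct
Itgb5: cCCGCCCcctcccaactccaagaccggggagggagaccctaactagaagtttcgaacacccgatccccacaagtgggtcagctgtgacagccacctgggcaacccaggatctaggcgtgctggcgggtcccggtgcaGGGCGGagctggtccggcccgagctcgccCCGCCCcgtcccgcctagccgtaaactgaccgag
Both strands were searched for the GC box GGGCGG, the AP-1 site TGANTCA, the CRE TGACGTCA, the TEAD site GGAATG, the TATA box TATAAA and CCAAT, none of which overlapped another in these windows. Itgb5 held 3 GC boxes, Itgb8 held 1 CCAAT and Itgav held none of the 6. Among all 32851 windows of this length, 31.0% held a GC box, 29.3% a CCAAT, 10.1% a TEAD site, 9.96% a TATA box, 5.48% an AP-1 site and 1.47% a CRE. G and C made up 63.5% of the Itgb8 window and 68.0% of each of the other two. The median was 53.0% over all windows and 60.5% over the 31 windows of members. Of these 31 windows, 13 held a GC box and 6 a CCAAT. RefSeq windows were given for 26 of the 37 genes.

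Among the receptors for collagen, Itga2 rose and Itga1 fell. Itga2, the epithelial collagen receptor subunit, read 8.87, 8.96 and 8.92 in control cells and 9.67, 9.78 and 9.58 in mutant cells. The groups did not overlap, and the rise was 1.70-fold (log2 fold change 0.76, 95% interval 0.61 to 0.92; adjusted p = 0.000203). Itga1, a collagen receptor subunit common in mesenchymal and endothelial cells, read 8.18, 8.21 and 8.13 against 7.93, 7.98 and 7.94, a 1.17-fold fall (log2 fold change -0.22; adjusted p = 0.0175). The fall of Itga1 did not pass without control replicate 2 (adjusted p = 0.0543), mutant replicate 1 (0.0757) or mutant replicate 3 (0.0589). In the same arrays 1 of 6 endothelial markers, Plvap (log2 fold change -0.42), fell. None of the 6 rose, and their summed linear signal was 578.9 to 809.5 in control and 486.4 to 661.9 in mutant cells. All 6 lay under the median of all probe sets. Of 6 markers of the mesenchymal stroma, 0 passed. Their summed linear signal was 703.4 to 809 in control and 722.6 to 761.9 in mutant cells. The part of either cell type in the change of Itga1 was not tested. Itga10 and Itga11, collagen receptor subunits of cartilage and fibroblasts, lay under the median and did not pass, with differences of -0.16 and -0.06.

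Laminin receptors, the main integrins of an epithelium on its basement membrane, differed little in their alpha subunits. Itga3, whose loss impairs bud branching in mice, read 10.60, 10.47 and 10.54 in control cells and 10.50, 10.58 and 10.50 in mutant cells. The groups overlapped, and the 95% interval of the log2 difference ran from -0.14 to 0.13. Itga6, which pairs with Itgb1 and Itgb4, read 11.10, 11.07 and 11.08 against 10.84, 10.93 and 11.01. The arrays did not overlap, and the difference of -0.16 did not pass (95% interval -0.30 to -0.02; adjusted p = 0.0994), though it passed in 2 of 14 alternatives. Itga7, the laminin receptor subunit of muscle, lay under the median and did not pass (log2 fold change -0.14).

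Itgb4, the partner of Itga6 in hemidesmosomes, rose while Itga6 did not pass. It read 8.95, 8.78 and 8.79 in control cells and 9.10, 9.30 and 9.11 in mutant cells, a 1.26-fold difference (log2 fold change 0.33, 95% interval 0.15 to 0.51; adjusted p = 0.0163). Without control replicate 2 the adjusted p was 0.0578, and without mutant replicate 2 it was 0.0526.

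The remaining alpha subunits of matrix receptors gave small differences. Itga8 is the nephronectin receptor subunit of the metanephric mesenchyme, which answers the nephronectin made by the bud. It read 6.09, 6.21 and 6.17 in control cells and 6.01, 5.90 and 6.20 in mutant cells, under the median on every array and overlapping between groups. Its log2 fold change was -0.12 (95% interval -0.31 to 0.08; adjusted p = 0.347). Itga5, the fibronectin receptor subunit, read 8.58, 8.37 and 8.66 against 8.74, 8.84 and 8.75. No mutant array overlapped a control array, and the difference of 0.24 did not pass (95% interval 0.05 to 0.43; adjusted p = 0.0699). It passed in 5 of 14 alternatives, among them the fit without control replicate 3 (adjusted p = 0.0332).

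Itga4 and Itga9, closely related subunits that bind fibronectin segments, VCAM and tenascin, moved in opposite directions by small amounts. Itga4 read 9.53, 9.54 and 9.65 in control cells and 9.75, 9.79 and 9.77 in mutant cells (1.14-fold; log2 fold change 0.19; adjusted p = 0.0403). Itga9 read 7.60, 7.23 and 7.58 against 7.04, 7.10 and 7.14 (1.30-fold lower; log2 fold change -0.37, 95% interval -0.61 to -0.14; adjusted p = 0.0297). It was the one gene under the median that passed. In neither gene did the groups overlap. The call of Itga4 was lost when any array except control replicate 3 was left out. That of Itga9 was lost when any array except control replicate 2 was left out. Over the alternatives run, the log2 fold change was 0.17 to 0.23 for Itga4 and -0.50 to -0.31 for Itga9. For Itga4 the adjusted p was 0.101 without control replicate 1, 0.107 without control replicate 2, and 0.105, 0.111 and 0.0973 without mutant replicates 1, 2 and 3. For Itga9 it was 0.0862 without control replicate 1, 0.0693 without control replicate 3, and 0.0964, 0.0815 and 0.0652 without mutant replicates 1, 2 and 3.

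**Figure D4:**
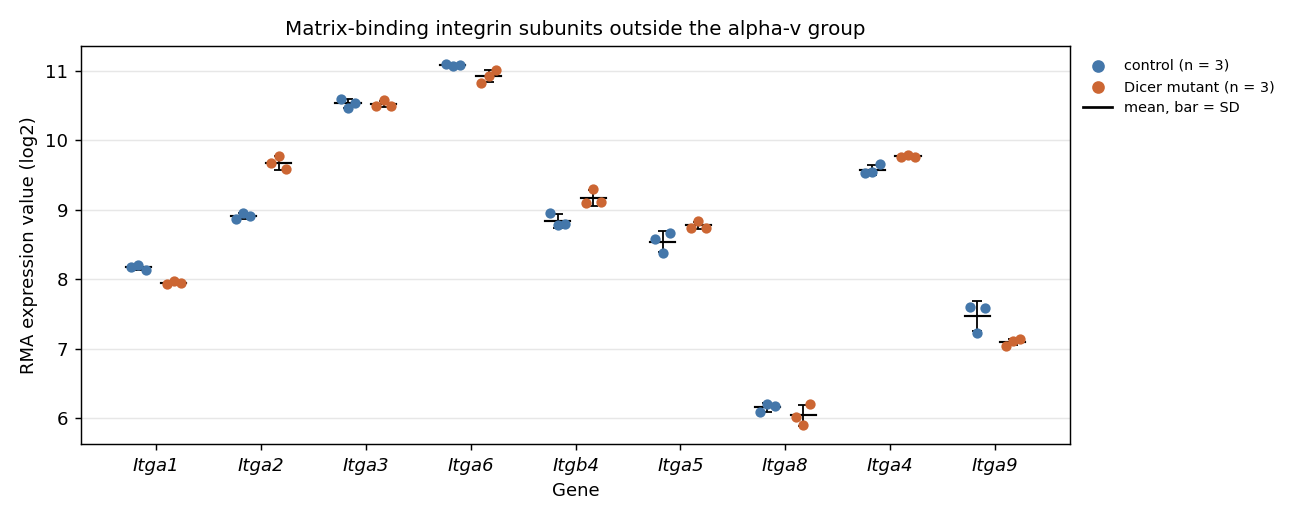
RMA value (log2, vertical axis) on each array of collagen, laminin, fibronectin and nephronectin receptor subunits outside the alpha-v group, control in blue and Dicer mutant in orange, with the mean and SD of 3 arrays. Itga2 rose by 0.76, whereas Itga3 and Itga8 overlapped between the groups.

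Integrins of blood cells were dim on every array and none passed. Itgal, Itgam, Itgax, Itgad and Itgae, the alpha subunits of leukocyte receptors, had means of 5.35 to 6.02 over the 6 arrays, and log2 fold changes of -0.21 to 0.03. Their partners Itgb2 and Itgb7 had log2 fold changes of -0.09 and -0.08. Itga2b, the platelet subunit, differed by -0.28, which did not pass (95% interval -0.52 to -0.05; adjusted p = 0.0739). Without control replicate 3, Itga2b (adjusted p = 0.0133) and Itgad (0.0419) passed. Of 6 leukocyte markers, Ptprc fell (log2 fold change -0.45) and the other 5 did not pass, with a summed linear signal of 397 to 468.8 in control and 392.6 to 424.7 in mutant cells. Of 3 platelet markers, Ppbp rose by 0.46 and the others did not pass, with summed signals of 125.9 to 144.0 and 128.5 to 143.6. All of these leukocyte and platelet markers lay under the median of all probe sets. The part of either lineage in these values was not tested.

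Among the adaptors, the kindlins Fermt1 and Fermt2 rose. Kindlins bind beta tails together with talin and are needed to activate integrins. Fermt1, the kindlin of epithelia, read 9.67, 9.96 and 10.01 in control cells and 10.65, 10.70 and 10.73 in mutant cells. The groups lay 0.65 apart at their nearest arrays, and the rise was 1.76-fold (log2 fold change 0.82, 95% interval 0.60 to 1.03; adjusted p = 0.000588). Fermt2, the widely expressed kindlin, read 10.27, 10.29 and 10.31 against 10.62, 10.59 and 10.54, a 1.22-fold rise without overlap (log2 fold change 0.29, 95% interval 0.17 to 0.41; adjusted p = 0.00496). Both calls held in each of the 14 alternatives run. Fermt3, the kindlin of blood cells, was counted with the further signalling proteins and did not pass (log2 fold change -0.19; adjusted p = 0.127).

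The talins, which link beta tails to actin, did not pass. Tln1 differed by 0.10 (95% interval -0.05 to 0.25) and Tln2 by 0.13 (95% interval -0.05 to 0.30) on the log2 scale. An adjusted p above the threshold does not show that they were equal.

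Ilk, Lims1 and the parvins form a complex that kindlin recruits to integrins, and all 4 had negative differences, of which 1 passed. Negative differences were common, in 22 of the 37 members and 11912 of all 19296 genes. Among genes above the median brightness they were found in 5048 of 9677. Parva, the actin-binding member, read 11.35, 11.29 and 11.37 in control cells and 11.06, 11.05 and 11.03 in mutant cells. No array overlapped, and the level was 1.22-fold lower (log2 fold change -0.29, 95% interval -0.41 to -0.17; adjusted p = 0.0053). Ilk, the pseudokinase at the centre of the complex, read 10.63, 10.72 and 10.74 against 10.49, 10.58 and 10.49. That difference of -0.18 did not pass, though the arrays did not overlap (95% interval -0.31 to -0.04; adjusted p = 0.0595). Lims1, the LIM-domain partner of Ilk, differed by -0.15 (adjusted p = 0.077), and Parvb by -0.25 (adjusted p = 0.156). Parvb lay under the median of all probe sets, and its groups overlapped. Ilk passed in 4 of 14 alternatives and Lims1 in 2, and Parva passed in all 14.

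Of the adaptors nearer to actin, Zyx, a zyxin of mature adhesions under tension, rose slightly, while Vcl and Pxn did not pass. Zyx read 9.40, 9.30 and 9.39 in control cells and 9.56, 9.58 and 9.54 in mutant cells, a 1.15-fold difference without overlap (log2 fold change 0.20; adjusted p = 0.0313). It did not pass without control replicate 2 (adjusted p = 0.0893) or without mutant replicate 1 (0.101), replicate 2 (0.0935) or replicate 3 (0.0707). Vcl, vinculin, differed by -0.04 (95% interval -0.17 to 0.08) and Pxn, paxillin, by -0.09 (95% interval -0.22 to 0.04).

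**Figure D5:**
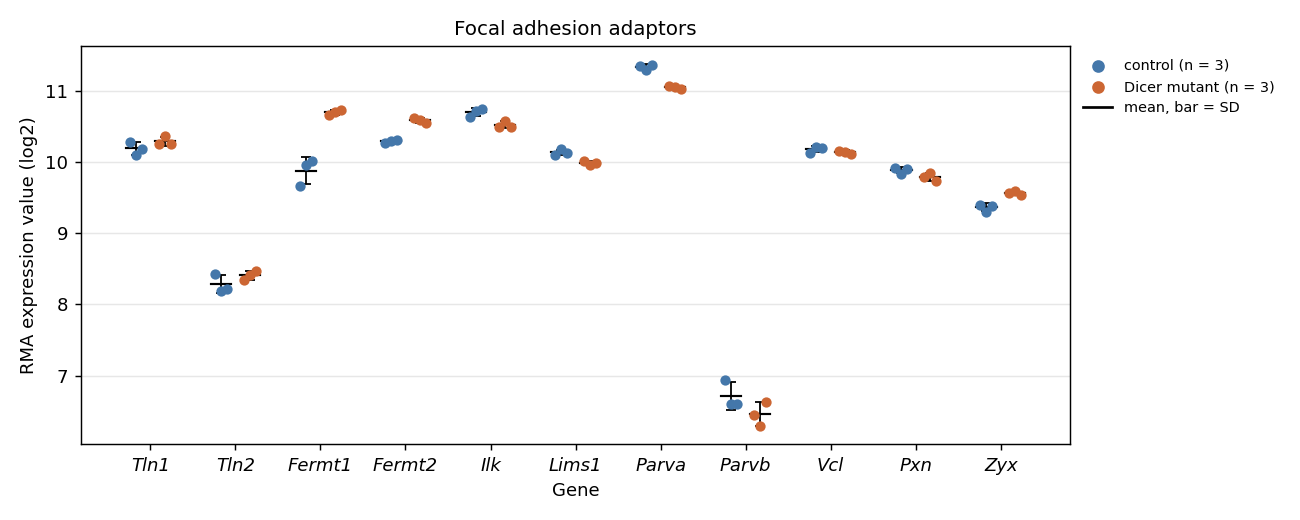
RMA value (log2, vertical axis) of 11 focal adhesion adaptors on each array, control in blue and Dicer mutant in orange, with the mean and SD of 3 arrays. Fermt1 rose from 9.88 to 10.70 and Fermt2 from 10.29 to 10.58, Parva fell from 11.34 to 11.05, and the other adaptors differed between the groups by -0.25 to 0.20.

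The other genes of the pathway were counted from 5 lists of ligands, signalling proteins and traffic factors, of which 102 of 108 genes were measured. Of these, 16 rose and 18 fell, 33.3% in all, beside the 25.8% of all genes. The lists hold mostly bright genes, and of the 69 above the median 27 passed, or 39.1%, which is near the 39.6% of all such genes. Leaving out mutant replicate 1, 2 or 3 gave 8, 8 and 10 higher genes, and leaving out mutant replicate 1 or 3 gave 11 lower genes.

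Most of the basement membrane ligands did not pass. Of 17 measured laminin and collagen genes (with Nid1 and Hspg2), 2 rose, 4 fell and 11 did not pass, and the median difference was -0.05. The 6 make up 35.3%, beside the 25.8% of all genes. Of the 11 above the median brightness 4 passed, or 36.4%, beside 39.6% of all such genes. Of the 6 under it 2 passed, beside 11.9% of all dimmer genes. Lamb3 and Lamb2, beta chains of laminins, fell by 0.48 and 0.37 (adjusted p = 0.00457 and 0.00216). Lama5, an alpha chain, also fell (log2 fold change -0.24, adjusted p = 0.034). Lama1, the alpha chain of early kidney epithelium, did not pass (-0.13). Col4a2 of basement membrane collagen rose by 0.29 (adjusted p = 0.0189), a call lost without control replicate 2 (0.0605) or mutant replicate 2 (0.0661).

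Of 17 measured RGD and other ligands, 2 rose and 2 fell, with a median log2 fold change of 0.00. That is 23.5%, beside the 25.8% of all genes. Of the 7 above the median brightness 4 passed, beside 39.6% of all such genes. Of the 10 under it 0 passed, beside 11.9% of all dimmer genes. Ccn2, a matricellular protein that alpha-v receptors bind, rose 2.16-fold, and Fn1, fibronectin, rose 1.45-fold from 11.55 ± 0.04 to 12.09 ± 0.01 (SD, n = 3 each; adjusted p = 0.000306). Npnt, the nephronectin of the bud that Itga8 recognises, fell by 0.23 (adjusted p = 0.0245). It did not pass without control replicate 2 (0.0749), mutant replicate 1 (0.0647) or mutant replicate 3 (0.0859). Vtn, vitronectin, the ligand of Itgb5, was dim at 5.49 over the 6 arrays and did not pass (log2 fold change 0.01).

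Genes of latent TGF-beta, the substrate of the Itgb6 and Itgb8 receptors, rose in 1 and fell in 2 of 9 members (33.3%, beside the 25.8% of all genes), with a median log2 fold change of -0.17. Of the 4 above the median brightness 1 passed, and of the 5 under it 2 passed. Tgfb2, whose latent form lacks the RGD site of the other isoforms, rose by 0.37 (adjusted p = 0.0102). Tgfb1 and Tgfb3, which carry that site, differed by -0.17 and 0.14, and neither passed. Ltbp3, which holds latent TGF-beta in the matrix, fell by 0.55 (adjusted p = 0.00467).

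Signalling proteins and adaptors outside the 37 genes rose in 8 and fell in 2 of 40 measured members, or 25.0%. Over all genes the share was 25.8% (11.8% higher and 13.9% lower). Of the 31 members above the median brightness 10 passed, or 32.3%, beside 39.6% of all such genes. Fyn and Yes1, Src-family kinases that act at adhesions, rose by 0.53 and 0.44 (adjusted p = 0.000509 and 0.00323), whereas Src itself had a log2 fold change of 0.01. Ptk2b, a focal adhesion kinase relative, fell by 0.66 (adjusted p = 0.000293).

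Tetraspanins and integrin traffic genes rose in 3 and fell in 8 of 19 members, 57.9% in all, beside the 25.8% of all genes. Of the 16 members above the median brightness 8 passed, beside 39.6% of all such genes. All 3 under it passed, Snx31 and Itgb1bp1 among them, beside 11.9% of all dimmer genes. Rab25, an epithelial GTPase that recycles integrins, fell by 0.84 (1.79-fold lower; adjusted p = 9.2e-05). Snx31, a sorting nexin of the urothelium that binds beta tails, was 2.50-fold lower (adjusted p = 0.00527). Itgb1bp1, which competes with talin for the Itgb1 tail, was 1.51-fold lower (adjusted p = 0.00279).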

How the data were processed

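RNA of 6 samples, 3 control and 3 Dicer mutant, was labelled for Affymetrix WT arrays, per the labels' protocols. The deposited values are log2 values of each probe set on each array, with RMA and affy named in the submitters' processing notes. RMA makes the arrays' distributions alike, so a shift of most transcripts would be removed, and it compresses changes of dim genes. The software versions, build, filters and detection calls are not given here. The platform annotation gave 1 gene symbol for 20728 of the 23309 probe sets, several for 1174 and none for 1407. The probe set with the highest mean was kept for each of 19296 genes.

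Genotype was the only term of a linear model per gene (lmFit and eBayes of limma 3.58.1, run in R 4.3.3, two-sided, adjusted over all genes by Benjamini-Hochberg). Intervals are limma's at 95%. The fit was tested on simulated arrays. The members, lists and tests were chosen with earlier results of these data known, and no list was tested as a set. Array values were given for members past the threshold without overlap and for Itga3, Itga6 and Itga8 whatever their result. Those of Itga5 and Ilk, which did not pass, were given outside this rule. Up to 4 genes past the threshold were named in each pathway list, others being added after their values were seen. Alternatives left out each array or the dim genes, added a block for the replicate number, normalized by quantiles again, centred arrays on their medians, averaged a gene's probe sets, weighted the arrays, fitted eBayes robustly with a trend, or took a threshold of 0.01. Those for pathway genes were chosen after seeing the data. Protein tails were not described, since no protein sequences were used here. Promoter windows came from RefSeq (GRCm38.p6). Figures used matplotlib 3.10.9. The number of arrays limits the precision.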

Additional observations from a re-analysis of the deposited data

How the results depend on the processing

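The counts of members that rose (10) and fell (4) came to 6 and 2 at a threshold of 0.01, and 7 fell with a variance trend and robust eBayes. With each array left out in turn, 6 to 10 members rose and 2 to 5 fell. Over all genes, 1367 were higher and 1423 lower at the threshold of 0.01, and the lower genes ranged from 1764 to 2973 with 1 array left out. Median centring turned the balance of all genes from 2285 higher and 2690 lower to 2696 higher and 2241 lower, so 54.6% of calls were higher in place of 45.9%. The pathway lists gave 6 higher and 10 lower genes at 0.01. With 1 array left out they gave 8 to 15 higher and 11 to 19 lower genes. Replicates with the same number did not deviate together (correlations of -0.19, -0.10 and -0.22 over 19296 genes), and no paired reading was used. Pairs with different numbers gave -0.01 to 0.18. Deviations from the mean of a group offset one another, so these correlations are not independent. Whether arrays of the 2 groups shared processing was not tested. With the replicate number as a block, 10 of the 14 member calls were kept, those of Itga1, Itga4, Itgb1 and Zyx were not, and the pathway lists gave 8 higher genes. Fermt1, Fermt2, Itga2, Itgav, Itgb5, Itgb6, Itgb8 and Parva kept their call in each of the 14 alternatives. Averaging probe sets could not change a member's values, since each member had 1 probe set. Itgb8 entered the fit without dim genes through its mutant level alone. Direction turned for members that never passed. Itga3 gave 0.0255 with median centring. Itga11, Itgal and Itgb7 gave 0.0244, 0.0143 and 0.0015 after further quantile normalization. With 1 array left out, Itga3 ranged from -0.0414 to 0.0225, Itga11 from -0.0997 to 0.0307 and Itgax from -0.0395 to 0.1107. The causes were not tested. Signal limits the 15 members under the median brightness most, since the files hold no measure of background.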
